A study of Mus musculus with 12 samples.

Results

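The nuclear lamina and chromatin organisation genes of rods were followed here as 8 genes: the lamins Lmna, Lmnb1 and Lmnb2, the lamin B receptor Lbr, and the chromatin regulators Casz1, Cbx5, Ezh2 and Satb1. They were taken by name from a table of 56748 genes, and all 8 were present once. RNA came from 2-week-old mice, as whole-retina RNA (retina) and as RNA bound to HA-tagged ribosomes of rods (rods), the tag being switched on by a Cre specific to rods. Control (Het) mice were RiboTag, Shp2fl/+ and i75-Rod-Cre, and KO mice were RiboTag, Shp2fl/fl and i75-Rod-Cre, so the controls also carried Cre and a floxed Shp2 allele, and they were littermates. The tag is expressed only after Cre acts, and retina RNA of both genotypes holds all other retinal cells along with rods. Each of the 4 groups had 3 libraries, 12 in all, which the labels give as separate samples without saying which animals they came from, so the p-values measure the spread between these libraries.

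Beneath the inner nuclear membrane, A-type lamins (from Lmna) and the lamin B receptor are the main tethers that hold heterochromatin at the nuclear rim. Mouse rods are known for nuclei turned inside out, with heterochromatin in the centre and euchromatin at the rim, and this inverted arrangement goes with loss of both tethers as rods mature after birth. Cbx5 encodes HP1 alpha, a reader of H3K9 methylation that marks heterochromatin. Ezh2 is a catalytic subunit of Polycomb repressive complex 2, Satb1 is a genome organiser that binds matrix attachment regions, and Casz1 is a zinc finger factor known for a part in the nuclear organisation of rods.

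The deposited whole numbers are scaled values and not raw reads, since totals lay between 14525527 and 14527992 in the 6 retina libraries and between 16263948 and 16265259 in the 6 rod libraries. Scaling factors estimated from the gaps between low integers put the underlying reads at 9990046 to 19229639 in retina and 11897548 to 25276238 in rods, so a floor of 3 reads was a share of 1.19e-05% to 3.00e-05% of a library. Ptpn11, the gene of Shp2, was at 2511, 2439 and 2431 in the Het rod libraries, against deposited values of 1735, 2139 and 1971 in KO rods. The groups did not overlap, yet the fall of 0.23 in log2 did not pass the test (adjusted p = 0.0775), and a value summed over the whole gene also takes in exons that are not floxed. All 20 rod markers were higher in Het rods than in Het retina (median log2 fold change 1.78). Of 13 Muller glia markers 13 were lower (median −4.91), as were 11 of 13 bipolar (−4.91), 10 of 10 amacrine (−4.85), 10 of 10 ganglion cell (−4.94), 5 of 5 horizontal cell (−4.24), 8 of 8 tested microglia (−4.24), 10 of 10 vascular (−4.32) and 7 of 7 tested RPE markers (−3.68). Markers near 0 in rods passed the filter on low values through retina alone, so only a fall was open to them. Among the rod libraries 0 of 10 microglia markers passed it. Cone markers fell less, 10 of 11 being lower with a median of −1.05. Their summed share ran from 0.0443% to 0.0615% of Het rod libraries and from 0.114% to 0.134% of Het retina libraries, against 0.0138% to 0.0231% and 0.401% to 0.558% for Muller glia markers. In KO rods against KO retina, all tested Muller glia, amacrine, ganglion cell, horizontal cell, microglia and vascular markers were again lower. Of 8 RPE markers only 2 were lower there (median −3.45) and 6 did not pass. The summed share of RPE markers ran from 0.00292% to 0.0760% of KO retina libraries. None of the marker genes of these cell types was at 0 in all 6 rod libraries. Whether this signal came from other cells was not tested, nor was its part in the values below.

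Lmnb1, a constitutive B-type lamin (ENSMUSG00000024590, chromosome 18), was the most abundant lamin in every group. The table gives it 1298, 1248 and 1215 in Het rods and 669, 662 and 458 in Het retina. Every rod library was above every retina library, a 2.58-fold difference (log2 1.37, SE 0.16, adjusted p = 0.000114), and it passed the test. Here and below a gene passed, and is said to have risen or fallen, if limma gave it an adjusted p under 0.05 with more than 0.5 of log2 difference in either direction. The KO libraries gave 1245, 1207 and 1243 in rods and 562, 560 and 577 in retina. That difference was 2.86-fold (log2 1.52, SE 0.10, adjusted p = 5.05e-06).

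Lmna, which encodes lamins A and C (ENSMUSG00000028063, chromosome 3), was close to absent from the rod libraries. The 3 Het rod libraries held 0, 1 and 0 of it and the 3 KO rod libraries 0, 2 and 0. Het retina held 27, 68 and 34, and KO retina 48, 32 and 104. With the values read as reads, the Het rod total was 0.942% of that of Het retina after correction for TMM-scaled library totals (exact 95% interval 0.0237% to 5.34%, counting error only), and the KO total was 1.44% (0.173% to 5.28%). In the fit Lmna fell in Het rods (adjusted p = 5.02e-05) and in KO rods (adjusted p = 0.000108), but its log2 fold change is set by the pseudocount, at −4.04 with 2 added in the Het comparison, −5.63 with 0.5 and −2.41 with 8. Lmna also passed the filter on low values through its retina libraries alone. Only a fall was therefore open to it, and these p-values add no support to the values above. The retina libraries of each genotype differed widely among themselves.

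Lmnb2, the other B-type lamin (ENSMUSG00000062075, chromosome 10), was at 100, 155 and 113 in Het rods and at 167, 312 and 100 in Het retina. These groups overlapped, and the log2 fold change of −0.24 (95% interval −1.15 to 0.67, adjusted p = 0.618) leaves both directions possible. In KO libraries it was at 232, 303 and 186 in rods and 202, 151 and 299 in retina (log2 0.57, interval −0.09 to 1.23, adjusted p = 0.112). That comparison passed the test without KO retina replicate 3 (log2 0.82, adjusted p = 0.0144) and with all 6 libraries and the GC trend removed (log2 0.53, adjusted p = 0.0141).

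Lbr, the inner membrane protein that holds B-type lamins and heterochromatin (ENSMUSG00000004880, chromosome 1), was well above 0 in rods. It was at 298, 290 and 248 in Het rods and 288, 274 and 241 in Het retina. After TMM scaling, which corrects for the rod genes that fill much of a rod library, the rod libraries lay just above the retina libraries, with a log2 fold change of 0.33 (interval −0.02 to 0.69, adjusted p = 0.0914) that did not pass and that turned to −0.10 under scaling by library size alone. In KO libraries it was at 275, 265 and 278 in rods and 294, 291 and 231 in retina, and the scaled difference was 0.41 (adjusted p = 0.0318), under the 0.5 threshold, and −0.15 by library size alone. Scaling by library size moved the median over all genes from −0.08 to −0.51 in the Het comparison and from 0.01 to −0.55 in the KO comparison, so each of these fold changes is to be read against that median. Lbr exons overlap those of Dnah14 on the opposite strand, and where reads are counted without strand the genes cannot be told apart. The rRNA gene Gm26004 overlaps Lbr on its own strand.

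**Figure D1:**
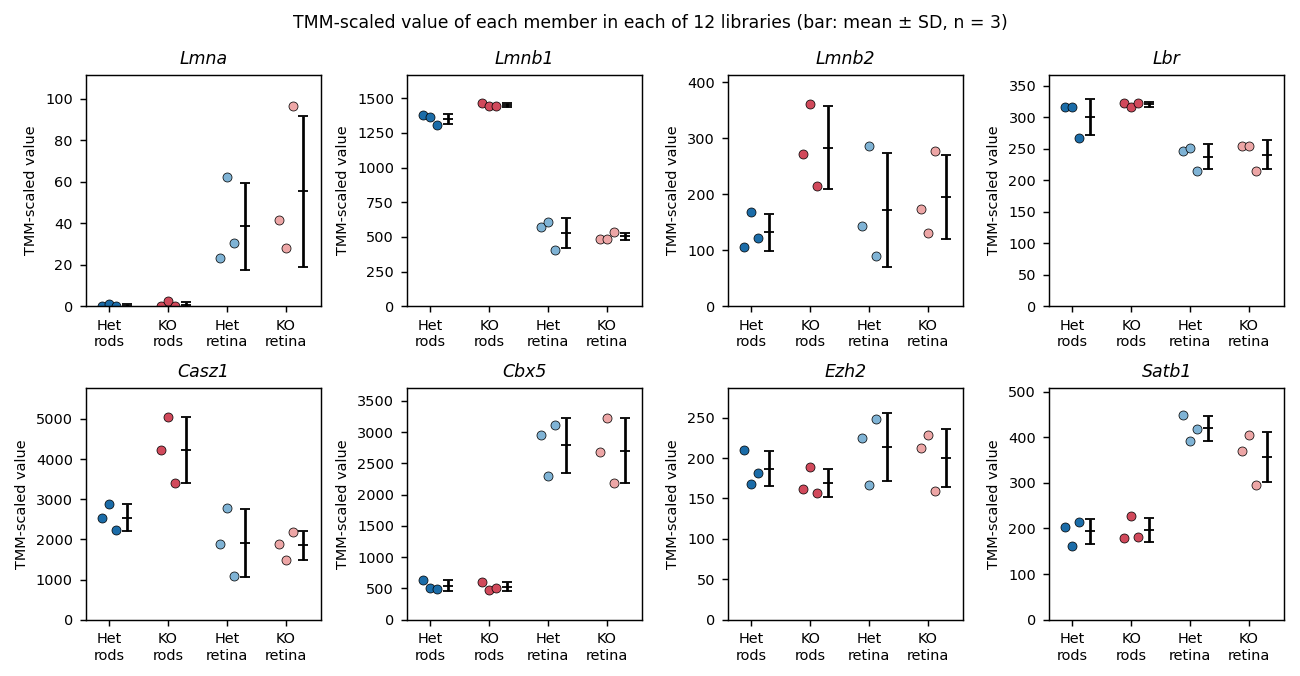
TMM-scaled value (vertical axis, from 0) of each of the 8 genes in each library, by group, with the mean and SD of 3 libraries as a bar. Lmnb1 is higher and Cbx5 and Satb1 lower in all rod libraries than in any retina library, Lmna is near 0 in rods, and Casz1 and Lmnb2 are higher in KO than in Het rods.

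The upstream sequences of Lbr and Lmna are shown because of these tether genes the former was present in rods and the latter near 0. Each run is the 250 bases before a RefSeq start (build GRCm38.p6, a build other than the GRCm39 named in the submitters' notes), 5′ to 3′, with matches to a GC box (GGGCGG on either strand) in capitals. Lbr lies at chr1:181842402-181842651 on the minus strand and Lmna at chr3:88503353-88503602 on the minus strand.
Lbr: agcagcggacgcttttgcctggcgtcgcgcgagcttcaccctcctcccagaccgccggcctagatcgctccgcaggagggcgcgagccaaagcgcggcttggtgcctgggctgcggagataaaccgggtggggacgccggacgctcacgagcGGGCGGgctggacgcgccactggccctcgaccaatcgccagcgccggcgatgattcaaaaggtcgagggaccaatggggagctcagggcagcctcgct
Lmna: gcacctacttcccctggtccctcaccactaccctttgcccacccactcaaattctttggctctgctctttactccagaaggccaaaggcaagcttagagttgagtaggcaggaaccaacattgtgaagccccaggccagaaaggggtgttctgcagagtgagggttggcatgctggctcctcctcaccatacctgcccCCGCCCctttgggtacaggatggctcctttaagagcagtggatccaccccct
Counted over 300 bases, from 250 before to 50 after the start, Lbr had 2 GC boxes, 72.0% GC and 42 CpG, and this Lmna start had 1 GC box, 56.3% GC and 1 CpG. Another Lmna start, not printed, had 0 GC boxes, 54.7% GC and 7 CpG. The medians over 32851 promoters were 52.7% GC and 7 CpG, and 35.7% of promoters held a GC box. A match is only a match of letters, and which start rods use cannot be read from values given per gene.

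Cbx5, the gene of HP1 alpha (ENSMUSG00000009575, chromosome 15), was among the most abundant of the 8 genes in retina and fell sharply in rods. It was at 600, 470 and 449 in Het rods against 3450, 2498 and 3497 in Het retina. The groups lay far apart, with a 5.09-fold lower value in rods (log2 −2.35, SE 0.16, adjusted p = 5.86e-06). In KO libraries it was at 514, 399 and 435 in rods and 3107, 3704 and 2356 in retina, again 5.08-fold lower (log2 −2.34, SE 0.17, adjusted p = 6.34e-06). This fall was smaller than the median fall of the Muller, bipolar, amacrine and ganglion cell markers given above.

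The other HP1 genes went the opposite way. Cbx1, the gene of HP1 beta, was at 2151, 1988 and 1986 in Het rods and 1219, 1042 and 1392 in Het retina and rose by 1.03 in log2 (adjusted p = 0.00013). Cbx3, the gene of HP1 gamma, was at 3187, 3042 and 2872 in Het rods and 1961, 1725 and 2064 in Het retina and rose by 0.94 (adjusted p = 9.07e-05). All rod libraries were above all retina libraries for both genes. Both rises are given after TMM scaling only. By library size alone fold changes in this comparison are lower, with the median of all genes at −0.51 in place of −0.08. Within the family, mRNA of HP1 alpha was thus lower in rods than in retina, and mRNA of HP1 beta and gamma was higher. Cbx3 has 8 named pseudogene copies in the annotation, and its value may be split among them.

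Ezh2 (ENSMUSG00000029687, chromosome 6) was at 198, 154 and 169 in Het rods and 263, 182 and 279 in Het retina. The groups overlapped, and the log2 fold change of −0.18 did not pass (interval −0.64 to 0.29, adjusted p = 0.47). By library size alone it was −0.61 and passed (adjusted p = 0.0336), a difference that lies near the −0.51 median of all genes under that scaling. In KO libraries it was at 137, 158 and 135 in rods and 246, 262 and 172 in retina (log2 −0.24, adjusted p = 0.301), and −0.80 by library size alone (adjusted p = 0.00727). Ezh1, the other catalytic subunit, which is known to prevail in cells that no longer divide, was at 2093, 1911 and 2015 in Het rods and 1452, 1353 and 1217 in Het retina. Ezh1 rose by 0.86 after TMM scaling (adjusted p = 0.000157), with no overlap between the groups. Its fold change by library size alone is not given here, and that scaling lowers fold changes in this comparison. Ezh2 exons overlap those of Gm26625, a non-coding gene on the opposite strand.

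Satb1 (ENSMUSG00000023927, chromosome 17) was lower in rods, at 192, 148 and 199 in Het rods and 523, 427 and 470 in Het retina. The groups did not overlap and the value was 2.17-fold lower (log2 −1.12, SE 0.16, adjusted p = 0.000395). In KO libraries it was at 153, 190 and 157 in rods and 428, 463 and 318 in retina, 1.81-fold lower (log2 −0.86, SE 0.18, adjusted p = 0.00274). Satb1 exons overlap those of Gm36931 on the same strand and Gm6934 on the opposite strand.

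Casz1 (ENSMUSG00000028977, chromosome 4) was at 2379, 2635 and 2063 in Het rods and 2204, 3032 and 1212 in Het retina. The retina libraries spanned the rod libraries, and the log2 fold change of 0.50 did not pass (SE 0.30, adjusted p = 0.175). With same-numbered libraries taken as pairs (the replicate block), which the labels do not state, the same fold change passed (adjusted p = 0.0358). It also passed without Het retina replicate 2 (log2 0.86, adjusted p = 0.0078) and with the GC trend of each library removed (log2 0.80, adjusted p = 0.00243). It did not without Het retina replicate 3 (log2 0.25, adjusted p = 0.201) or by library size alone (log2 0.06, adjusted p = 0.873). In KO libraries Casz1 was at 3588, 4226 and 2928 in rods and 2192, 1693 and 2341 in retina, with no overlap and a 2.27-fold higher value in rods (log2 1.18, SE 0.18, adjusted p = 0.000462). An antisense gene, Gm13205, overlaps Casz1 exons.

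**Figure D2:**
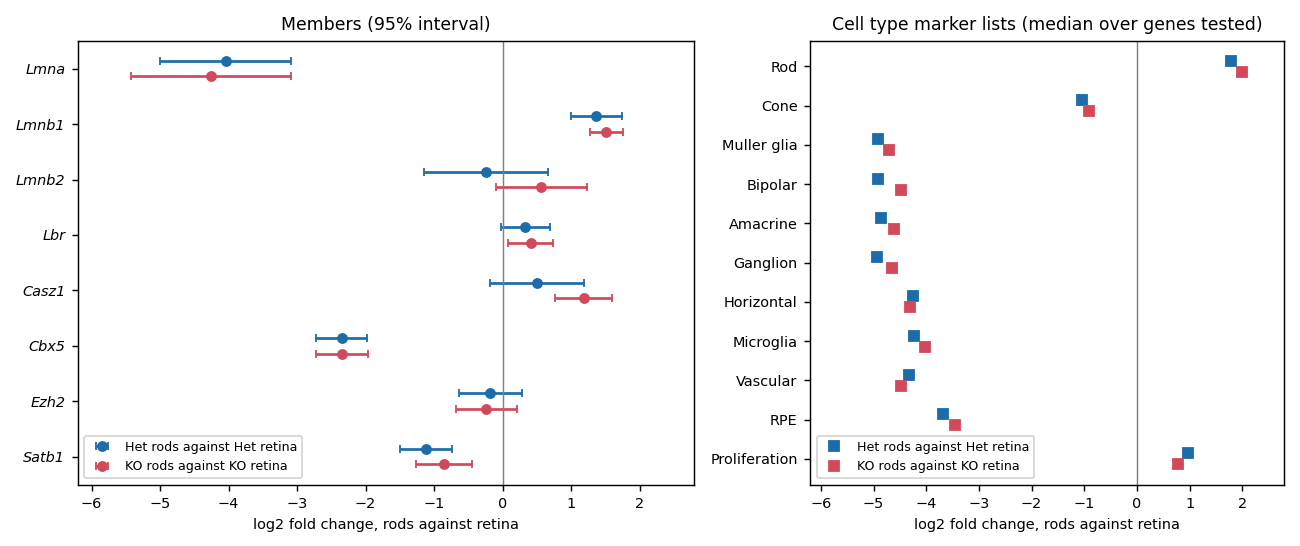
Log2 fold change of rods against retina (horizontal axes) for the 8 genes with 95% intervals on the left and the median over the tested genes of each cell type marker list on the right, for Het and KO. Cbx5 and Satb1 lie between 0 and the fall of most other cell type markers, while Lmna lies among them at a place set by the 2 added to each value.

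In all, 1 of 8 genes was higher in Het rods (Lmnb1) and 3 were lower (Lmna, Cbx5 and Satb1), where 22.7% of all 16110 genes tested were higher and 36.4% lower. The groups did not overlap for 5 of 8, against 68.9% of all genes. In the KO comparison 2 of 8 were higher (Lmnb1 and Casz1) and the same 3 lower, against 26.9% and 36.1% of 16121 genes, and 6 of 8 did not overlap, against 73.0%. By library size alone the split over all genes was 1168 higher and 7399 lower in place of 3650 and 5856 with Het, and 1144 and 7846 in place of 4341 and 5813 with KO. The shares of members are near those of all genes, so the number of members that differed is itself no result. Lmna is counted among the lower genes although it passed the filter only through its retina values, which left no other outcome. In the values taken from these bulk samples, fewer cells of a type and less RNA per cell cannot be told apart. Rod libraries hold RNA selected by tagged ribosomes and retina libraries hold whole RNA. Cell type, ribosome binding and the selection itself therefore cannot be told apart either.

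Ratios of 2 genes within a library hardly depend on its scaling, although 2 was added to each value, which limits the ratios to Lmna in rods. Over 7 pairs and 4 comparisons, 28 ratio comparisons were made, and with 3 libraries against 3 the smallest p of the two-sided exact permutation test is 0.1 (0.175 after adjustment), so none could pass, and 6 of the pairs are described. The log2 ratio of Lmnb1 to Lmna was 9.43, 8.79 and 9.36 in Het rods and 4.52, 3.24 and 3.67 in Het retina, a difference of 5.38. Lbr to Lmna differed by 4.35, so whereas retina held both tethers, rods held mRNA of Lbr almost alone. The ratio of Cbx5 to Cbx1 was −1.84, −2.08 and −2.14 in Het rods and 1.50, 1.26 and 1.33 in Het retina. Cbx5 to Cbx3 differed by −3.29, and on both ratios every rod library was negative and every retina library positive. Ezh2 to Ezh1 was −3.39, −3.62 and −3.56 in Het rods and −2.45, −2.88 and −2.12 in Het retina, lower in all rod libraries although Ezh2 itself did not pass. Lmnb1 to Lmnb2 was 3.67, 2.99 and 3.41 in Het rods against 2.42, 1.99 and 2.73 in KO rods, without overlap. Ezh2 to Ezh1 was −3.91, −3.69 and −4.03 in KO rods, below all Het rods. A GC trend does not cancel in a ratio of genes of unlike GC, such as Lmnb1 (53.3%) and Lmnb2 (57.6%). KO and Het rods differ along GC content, as described below, and the trend was not removed from these ratios.

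**Figure D3:**
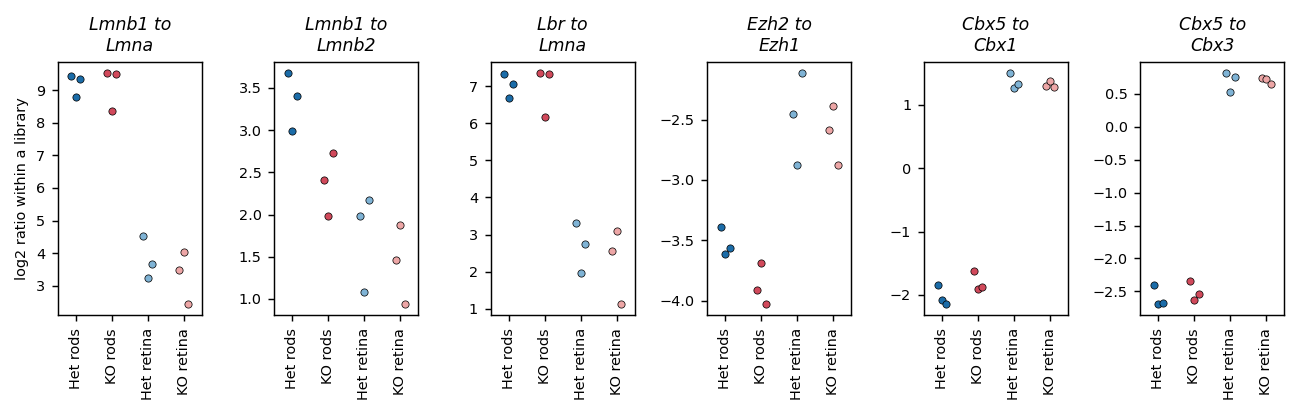
Log2 ratio of 2 genes within each library (vertical axes, each with its own range) for 6 pairs by group, each point a library. Rod and retina libraries of the same genotype separate for all 6 pairs, and KO and Het rods separate for Lmnb1 to Lmnb2 and Ezh2 to Ezh1. The GC trend of the libraries was not removed.

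Levels between genes were compared per kilobase of the longest coding transcript, scaled to the same sum in each library (TPM). In Het rods Lmnb1 led with a level of 77.4 ± 4.41 (SD, n = 3), followed by Casz1 at 52.2 ± 6.73, and both stood apart from the next gene in all libraries. Lbr (13.9 ± 1.61), Ezh2 (10.9 ± 1.65) and Cbx5 (10.1 ± 1.89) followed, and neighbours among these 3 overlapped. Lmnb2 (6.08 ± 1.37) and Satb1 (5.05 ± 0.80) also overlapped each other, and Lmna was last at 0.018. In Het retina the order was led by Cbx5 (56.8 ± 10.4), Casz1 (43.5 ± 19.3) and Lmnb1 (33.6 ± 8.28), which overlapped from neighbour to neighbour, and Ezh2 (13.7), Lbr (12.2), Satb1 (12.1), Lmnb2 (8.75) and Lmna (2.16) followed. In KO rods Casz1 (77.3 ± 12.7) and Lmnb1 (74.3 ± 2.48) shared the lead with overlapping ranges. This order depends on the length used: over the union of exons Lmnb1 (102) stood above Casz1 (71.6) in all KO rod libraries, Cbx5 (71.2) stood above all others in Het retina, and in Het rods Ezh2 was at 6.50 and Satb1 at 2.36. The levels of the 8 genes summed to 176 ± 13.6 in Het rods, 199 ± 13.0 in KO rods, 183 ± 29.9 in Het retina and 175 ± 20.1 in KO retina, so the summed level of rods and retina overlapped while its makeup differed.

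Loss of Shp2 in rods was then examined in the rod libraries. Of the 7 genes past the filter on low values, Casz1 and Lmnb2 were higher in KO rods and none was lower, against 12.1% of 13055 genes higher and 1.55% lower. Library size alone gave 1202 genes higher and 584 lower in place of 1579 and 202, with the median of all genes at −0.09 in place of 0.01. Lmna did not pass the filter. Lmnb2 rose from 100, 155 and 113 to 232, 303 and 186 in deposited values, 2.09-fold (log2 1.06, SE 0.22, adjusted p = 0.00737). Casz1 rose from 2379, 2635 and 2063 to 3588, 4226 and 2928, 1.62-fold (log2 0.70, SE 0.15, adjusted p = 0.0127). For both, every KO library was above every Het library, as was the case after scaling for 3 of the 7 genes (the third was Lmnb1) and for 43.5% of all genes in either direction. Without Het rods replicate 1 the change of Casz1 did not pass (adjusted p = 0.0708).

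The other 5 tested genes did not pass in KO rods. Lmnb1 was at a log2 fold change of 0.08 (interval −0.09 to 0.25), Lbr at 0.08 (−0.18 to 0.34) and Cbx5 at −0.06 (−0.35 to 0.23). Satb1 was at 0.00 (−0.34 to 0.35) and Ezh2 at −0.16 (−0.49 to 0.16). In this fit changes of 0.5 in either direction lie outside all 5 intervals. That does not hold for each gene once the GC trend described below is removed. Lbr was then at 0.36 (SE 0.11) and Satb1 at 0.27 (SE 0.15), so a change of 0.5 is not excluded for them. Of the relatives, Cbx1 was at 1580, 1500 and 1607 in KO rods, below all Het rods, with a log2 fold change of −0.28 that was under the threshold (adjusted p = 0.0213). The values of Ezh1 were 2087, 2060 and 2226, with a log2 fold change of 0.19 (adjusted p = 0.0856).

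**Figure D4:**
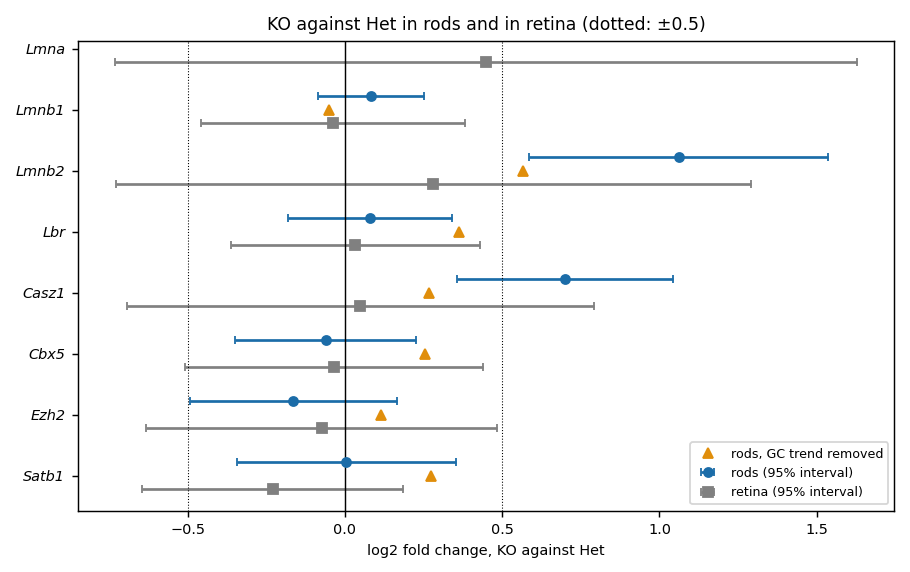
Log2 fold change of KO against Het (horizontal axis) for each gene in rods and in retina with 95% intervals, and in rods after the GC trend of each library was removed (triangles). Lmnb2 (1.06) and Casz1 (0.70) lie to the right of 0.5 in rods, and after removal they lie at 0.57 and 0.27.

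Both genes that rose are rich in GC, and the KO rod libraries as a whole differed from Het rods along GC content. Transcript GC was 57.6% for Lmnb2 and 56.9% for Casz1, above that of 90.0% and 87.3% of genes tested in rods, while Lbr (44.2%), Cbx5 (42.6%), Ezh2 (44.4%) and Satb1 (44.8%) were below the median of 49.5%. Genes that were higher in KO rods had a median GC of 57.4% and those that were lower 43.2%, and across 12907 genes the Spearman correlation of GC with the log2 fold change was 0.70, given as a description because genes are not independent. The difference between genes of high and low GC was −0.81, −0.23 and −0.42 in the Het rod libraries and 0.42, 0.76 and 0.28 in the KO rod libraries (log2). When this trend was removed from each library, Casz1 no longer passed (log2 0.27, adjusted p = 0.181), whereas Lmnb2 did (log2 0.57, adjusted p = 0.0349). The removal also moved the median of all genes from 0.01 to 0.10. The fold changes after removal are to be read against that median, and Lmnb2 passed by a small margin. Lmnb1, also above the median at 53.3% GC, was at −0.05 after the removal. Of the genes poor in GC, Lbr then stood at 0.36, Satb1 at 0.27, Cbx5 at 0.25 and Ezh2 at 0.12, none past the threshold. In these 6 libraries the GC trend and the genotype cannot be told apart.

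**Figure D5:**
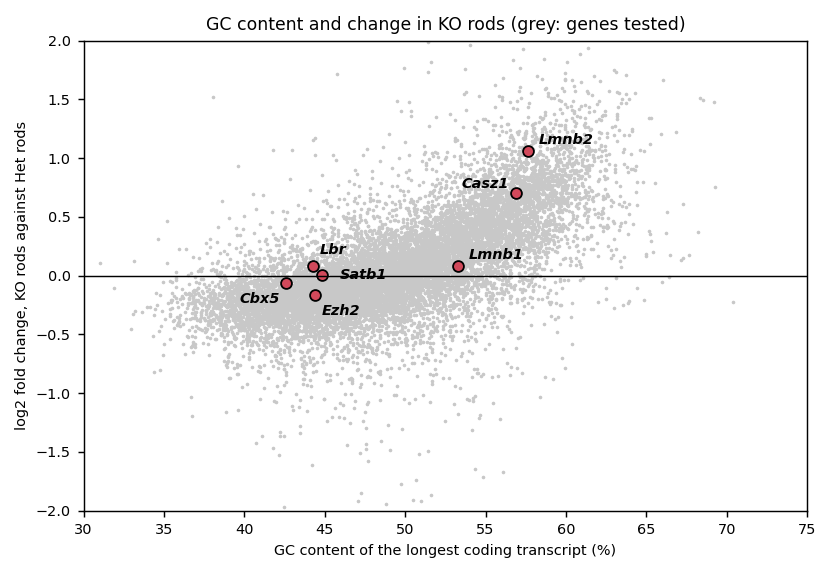
Log2 fold change of KO rods against Het rods (vertical axis) against the GC content of the longest coding transcript (horizontal axis), genes tested as grey points and the 7 tested members as red points. Of 12907 genes, 66 beyond ±2 and 1 outside the GC range are not drawn. Casz1 and Lmnb2 lie at high GC, where most genes are above 0, and the other 5 lie near 0.

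The same GC difference separated retina libraries of 1 genotype. It was −0.24, 0.85 and −0.83 in Het retina and 0.01, −0.63 and 0.90 in KO retina. The libraries highest on it, Het retina replicate 2 and KO retina replicate 3, were also the highest of their group for Casz1 (3032 and 2341), Lmnb2 (312 and 299) and Lmna (68 and 104). They were the lowest of their group for Cbx5 (2498 and 2356), Ezh2 (182 and 172) and Satb1 (427 and 318). The remaining members followed this only in KO retina. Lbr (274 and 231) was not lowest in Het retina replicate 2, and Lmnb1 (662 and 577) was not highest there.

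Sequence upstream of Casz1 and Lmnb2 is shown because these 2 genes differed between the genotypes. The runs are again the 250 bases before RefSeq starts in GRCm38.p6, and capitals mark the core of the Crx motif (TAATCC, or GGATTA on the other strand), the core of the Nrl motif (TGCTGA, or TCAGCA) and the GC box. Crx and Nrl are known regulators of photoreceptor genes. Casz1 start 1 lies at chr4:148889097-148889346 and start 2 at chr4:148804142-148804391, both on the plus strand, and Lmnb2 at chr10:80918246-80918495 on the minus strand.
Casz1 start 1: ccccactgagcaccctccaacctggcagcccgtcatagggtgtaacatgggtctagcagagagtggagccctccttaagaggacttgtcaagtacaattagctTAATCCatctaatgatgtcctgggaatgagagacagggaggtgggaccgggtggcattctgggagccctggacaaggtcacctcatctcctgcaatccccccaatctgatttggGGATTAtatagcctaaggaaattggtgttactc
Casz1 start 2: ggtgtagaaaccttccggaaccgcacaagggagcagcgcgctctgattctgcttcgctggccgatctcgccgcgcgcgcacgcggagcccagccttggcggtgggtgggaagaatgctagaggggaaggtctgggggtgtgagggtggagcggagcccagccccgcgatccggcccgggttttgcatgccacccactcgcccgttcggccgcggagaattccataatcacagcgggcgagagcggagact
Lmnb2 start 1: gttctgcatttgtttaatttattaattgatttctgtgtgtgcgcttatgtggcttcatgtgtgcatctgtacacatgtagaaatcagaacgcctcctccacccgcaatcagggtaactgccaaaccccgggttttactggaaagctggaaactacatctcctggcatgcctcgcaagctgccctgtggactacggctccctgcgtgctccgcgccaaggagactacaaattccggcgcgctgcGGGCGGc
Casz1 start 1, inside the gene, held 2 Crx cores, a motif found in 7.06% of 32851 promoters, with 50.3% GC, whereas start 2 held 0 and had 67.0% GC and 36 CpG. No start of Lbr, Lmna, Lmnb2, Cbx5, Ezh2 or Satb1 in the table held a Crx core. The Nrl core, found in 19.5% of promoters, was held by a second Lmnb2 start and by no other start of these genes. The Lmnb2 run above ends in a GC box.

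In whole retina none of the 8 genes passed between KO and Het, and 0% of 16863 genes did by limma, 140 of which had an unadjusted p below 0.05. Log2 fold changes ran from −0.23 for Satb1 to 0.45 for Lmna, with adjusted p = 1.0 for each. The groups overlapped for all 8 genes, and for all but 3.5% of the genes tested. The intervals were wide for Lmnb2 (−0.73 to 1.29) and Casz1 (−0.69 to 0.79), which take in the changes seen in rods. The difference between the KO effect in rods and that in retina was 0.69 for Casz1 (−0.18 to 1.55, adjusted p = 0.888) and 0.82 for Lmnb2 (−0.37 to 2.00, adjusted p = 0.888). It passed for 0 of 8 genes and for 0% of 17192, with 517 at an unadjusted p below 0.05, so an effect confined to rods was not shown.

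Partners of the members were read from 7 lists, beside which stand the all-gene medians of −0.08 for Het rods against Het retina and 0.01 for KO against Het rods. In the list of lamin-binding and LINC proteins, which link lamina and chromatin or span the nuclear envelope, 5 of 15 were higher in Het rods and 2 lower (median 0.29). Tmpo, the gene of the lamina-associated polypeptide LAP2, rose by 1.06 and Lemd3, an inner membrane LEM protein, by 0.92. Sun2 fell by 1.16 and Syne2, a nesprin, fell by 0.92. Of the enzymes that prenylate and trim lamin precursors, 4 of 5 were higher (median 1.04), among them Rce1 (1.22) and the methyltransferase gene Icmt (1.11).

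Among HP1 relatives and enzymes of H3K9 and H4K20 methylation, 6 of 18 tested were higher in Het rods and 1 lower (median 0.49). Setdb2, an H3K9 methyltransferase, rose by 1.06 and the chromatin remodeller Atrx fell by 0.51. Of the Polycomb genes 11 of 30 were higher and 5 lower (median 0.49). Eed and Rbbp4, core partners of EZH1 and EZH2, rose by 1.05 and 1.04, while in Polycomb repressive complex 1 Cbx6 fell by 1.67 and Pcgf2 fell by 1.38. The NuRD list split, with 3 of 12 higher and 4 lower (median 0.33). Mta2 rose by 1.32 and Hdac2 by 0.90, while Chd5, a remodeller of neurons, was at 60.1 against 627 in scaled value and fell by 3.28, and Mta3 was at 5.90 against 247.

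Of the chromosome architecture genes 12 of 18 were higher in Het rods and 1 lower (median 0.89). Top2b, the topoisomerase of post-mitotic cells, rose by 1.47 and the cohesin subunit Smc3 by 1.39. Of 10 tested linker histones and variants 5 were higher and 2 lower (median 0.85). H1f2 and H1f4 rose by 1.22 and 1.17, and H1f0 fell by 0.80, and Macroh2a2 fell by 2.25. As for the members, 22.7% of all genes were higher and 36.4% lower in this comparison. Of 12 cell cycle genes only 5 passed the filter, and 2 of these were higher in Het rods (median 0.97).

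Between KO and Het rods, 20 of 106 tested list genes were higher and 1 lower, beside 12.1% and 1.55% of all genes. After the GC trend was removed 4 were higher and 1 was lower, when 358 of all 13055 genes were higher and 102 lower. Nrm, the gene of the inner nuclear membrane protein nurim, rose by 1.50 and remained changed after removal (1.14). Lemd2 rose by 1.04, the H3K9 methyltransferase Ehmt2 by 0.85, the H3K27 demethylase Kdm6b by 0.97, Mbd3 by 1.27 and the matrix protein Safb by 0.76. None of these 5 passed after removal, when they were at 0.12, 0.14, 0.33, 0.42 and 0.34. Matr3, a nuclear matrix protein, fell by 0.50 and was at −0.14 after removal. By list, 5 of 15 envelope genes, 2 of 5 prenyl enzymes, 3 of 18 HP1 and methylation genes, 6 of 30 Polycomb, 2 of 11 NuRD, 2 of 17 architecture and 0 of 10 histone genes were higher, and Matr3 was the gene that was lower. In retina 0 genes of any list passed.

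Genes whose log2 values followed a member most closely over the 12 libraries were sought among 13833 protein-coding genes, as a description of libraries that share fraction and GC differences. For Casz1 these were Prkcz (Pearson r = 0.991) and Shroom3 (0.988), and 1002 genes were above 0.9. For Lbr they were Lsm11 (0.989) and Slc39a14 (0.982), with 585 above 0.9, and for Satb1 they were 1700109H08Rik (0.982) and Uhrf1bp1l (0.977), with 2290 above 0.9.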

How the data were processed

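The authors aligned reads of poly(A) RNA libraries, amplified by SMART-Seq V4 from flash-frozen retina, and deposited 1 table of whole numbers per gene. The submitters' notes name CASAVA 1.8.2, HISAT2, edgeR, DESeq2 and GRCm39, and the counter and strand of counting are not given in the sources used here. The deposited values are a signal scaled to a common total per fraction, so no count model was used. TMM factors (30% and 5% trimmed), computed without edgeR, scaled the values of the groups compared, which were raised by 2, taken to log2 and tested in limma 3.58.1 (R 4.3.3, trend and robust options) with Benjamini-Hochberg adjustment over all genes. Genes needed a value of about 10 in at least 3 libraries and a sum of 15. The KO effects in rods and retina were compared by an interaction over 12 libraries. Rod-depleted genes were kept in KO rods against Het rods, since that removal drops members, and removing them was an alternative.

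The replicate numbers come from the sample titles. Deviations of same-numbered Het rods and Het retina libraries correlated at 0.47, 0.41 and 0.25, and the replicate block treats them as pairs. The labels do not say that such libraries came from the same animal. Replicate 2 was also the highest on the GC difference in both Het groups (−0.23 in rods and 0.85 in retina). In the other comparisons at least 1 pair was under 0.1. Transcript length and GC come from GENCODE M21 (GRCm38), matched by Ensembl identifier, and a smooth GC trend (span 0.3) was removed from each library as an alternative. The members, lists and tests were chosen with earlier results of these data known. Genes named beside the members are, per list and comparison, at most the 2 largest rises and falls among changed genes without overlap, close relatives of members, Ptpn11 and the 2 nearest genes of 3 members. A few results that this rule names are not reported here. The test was tried on simulated data. Other alternatives were scaling (RLE or library size), a pseudocount of 0.5 or 8, no filter, 1 fit of all 12 libraries and leaving out each library.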

Additional observations from a re-analysis of the deposited data

How the results depend on the processing

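Over all settings of single members, 616 values stayed on their side of the threshold, 9 moved past the threshold and 5 fell back from it. No value that passed changed its direction, whereas values that did not pass changed sign under some settings, as Lbr did by library size. The exceptions touch Casz1, Lmnb2 and Ezh2, besides the summed level. The number of members changed in KO rods against Het rods was 2. It was 1 with the GC trend removed (Lmnb2), where the genes called fell to 358 higher and 102 lower, 1 with the GC trend removed and the replicate block (397 and 113), and 0 when all 12 libraries entered 1 fit, where limma called 0 of 17192 genes with 3371 at an unadjusted p below 0.05 (Casz1 0.72 and Lmnb2 1.08 in log2, both at an adjusted p = 0.221). That fit takes its spread from the retina libraries as well. Leaving out 1 library gave 1 to 2 members, the 1 being without Het rods replicate 1. The summed level in Het rods was 198.3 with the union of exons as the length in place of 176, and Lmnb1 then stood at 106.

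With the replicate block the counts of changed members were 5, 5, 2 and 0 in Het rods against Het retina, KO rods against KO retina, KO against Het rods and KO against Het retina, and Casz1 in Het rods against Het retina was the call it changed. In KO against Het rods the block moved the genes called from 1579 higher and 202 lower to 1679 and 233, although those libraries share only a number, 4 of 6 correlating best with their own. Depth limits Lmna, whose rod values are at or under the floor of 3 reads.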
